A study of Mus musculus with 7 samples.

Results

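The 9 genes described here encode the enzymes, transporters and a transcription factor by which serotonin, noradrenaline and acetylcholine neurons are recognised. They were chosen by name, whatever their values: Tph2, Slc6a4 and Fev for serotonin, Dbh and Slc6a2 for noradrenaline, and Chat, Slc18a3, Slc5a7 and Ache for acetylcholine. All 9 are among the 48526 genes of the deposited table, and all 9 are among the 17896 genes that were tested. The series holds 7 RNA-seq libraries of mouse brain, 4 of them on and 3 off, all of mice of 24 months that carry the constructs V1S and SV2 of a protein complementation system. The on libraries carry the labels DT, Venus and Glucose, the off libraries carry Dox in place of Glucose, and Venus is a fluorescent protein. Doxycycline and the state of the constructs therefore change together and cannot be told apart. No source used here gives the promoter that drives the constructs, the brain region or the number of animals. Whether the libraries are of separate animals is not said, so a p-value here measures the spread between these libraries, which may be technical.

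The serotonin neurons of the brain lie in the raphe nuclei, in and near the midline of the brainstem, and send axons to nearly all of the brain. Most noradrenaline neurons lie in the locus coeruleus of the pons and in smaller groups of the medulla. Acetylcholine is made by neurons of the basal forebrain, by interneurons of the striatum, by neurons of the medial habenula and the brainstem, and by motor neurons. Each system needs an enzyme that makes the transmitter, a pump that loads it into vesicles and a protein that ends its action, either by uptake or by breakdown.

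The promoters of 3 genes whose levels moved together between libraries are given here, a choice made with their values seen, since Fev encodes the transcription factor Pet-1, an ETS factor on which the mouse genes Tph2, Slc6a4 and Slc18a2 depend in serotonin neurons. Slc18a2 encodes the vesicular pump for serotonin, noradrenaline and dopamine. Each sequence is the 250 bases before the start of the gene, from RefSeq on the build GRCm38.p6, 5′ to 3′ on the strand of the gene. Capitals mark GGAA, the core that ETS factors bind, or its complement TTCC, both strands being searched and overlapping matches counted. The windows are chr10:115185023-115185272 on the minus strand for Tph2, chr11:76998347-76998596 on the plus strand for Slc6a4 and chr19:59260628-59260877 on the plus strand for Slc18a2.
Tph2: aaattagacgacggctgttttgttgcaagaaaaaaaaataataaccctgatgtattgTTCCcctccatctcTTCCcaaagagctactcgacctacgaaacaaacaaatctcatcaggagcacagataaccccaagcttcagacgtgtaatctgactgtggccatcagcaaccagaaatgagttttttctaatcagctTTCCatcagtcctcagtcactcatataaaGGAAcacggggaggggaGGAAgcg
Slc6a4: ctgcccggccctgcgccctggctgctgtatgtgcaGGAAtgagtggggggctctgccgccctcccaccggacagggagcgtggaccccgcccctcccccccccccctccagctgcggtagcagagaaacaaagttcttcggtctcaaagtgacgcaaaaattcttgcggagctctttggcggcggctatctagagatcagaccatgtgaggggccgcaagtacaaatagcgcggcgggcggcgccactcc
Slc18a2: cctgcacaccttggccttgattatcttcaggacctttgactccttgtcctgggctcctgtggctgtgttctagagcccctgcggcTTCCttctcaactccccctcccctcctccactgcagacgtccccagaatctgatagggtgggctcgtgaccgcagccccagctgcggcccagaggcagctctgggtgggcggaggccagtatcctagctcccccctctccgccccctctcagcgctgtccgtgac
The Tph2 window held 5 matches at a GC content of 43.6%, the Slc6a4 window 1 match at 64.8% and the Slc18a2 window 1 match at 64.0%. Of the 32851 windows of this length in the table, 93.4% held the motif, with a median of 3 matches, so a match describes the letters of a window and is no sign of a bound factor. Promoter windows were found for 8 of the 9 member genes, without Slc6a2.

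None of the 9 genes passed the test between on and off. With limma, 0 of 9 passed an adjusted p of 0.05, against 2.60% of all genes tested (466 of 17896). At an unadjusted p of 0.05, 1 of 9 passed, against 20.7% of all genes. In 0 of 9 did the on and off libraries stand apart without overlap, against 15.2% of all genes. The differences, on minus off, were negative in 5 genes and positive in 4, with a median of -0.01, beside 0.00 over all genes tested. All values are on a log2 scale as regularized logarithms (rlog), in which deviations of low genes are shrunken, so differences of low genes are understated. Depth per library is unknown, since the deposited values hold no counts.

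Tph2 encodes the enzyme that makes serotonin in neurons, and lies at chr10:115078641-115185022 on the minus strand of GRCm38. Its rlog values were 8.86, 8.81, 7.83 and 8.03 in on libraries 1 to 4, against 8.87, 7.51 and 8.79 in off libraries 1 to 3. Libraries 1 and 2 of on and 1 and 3 of off were high, libraries 3 and 4 of on and 2 of off were low, and the groups overlapped fully. Tph2 averaged 8.38 ± 0.53 in on (SD, n = 4) and 8.39 ± 0.76 in off (SD, n = 3). The difference was -0.01 ± 0.29 (SE, adjusted p = 0.994), with a 95% interval of -0.63 to 0.62, or 0.648-fold to 1.53-fold. The 7 libraries spanned 1.35, a 2.55-fold range. Since limma pulls the variance of a gene toward that of other genes, the interval is narrower than the spread of Tph2 alone would give. With a robust prior, which pulls such a gene less, the SE was 0.47, so larger differences are not excluded.

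Slc6a4 encodes the transporter that takes serotonin back up into the neuron, the target of reuptake inhibitors, and lies at chr11:76998603-77032340 on the plus strand. Its rlog values were 8.00, 7.86, 7.12 and 7.12 in on libraries 1 to 4, against 7.88, 6.70 and 7.92 in off libraries 1 to 3. The same 4 libraries were high and the same 3 low as for Tph2. The averages were 7.52 ± 0.47 in on (SD, n = 4) and 7.50 ± 0.69 in off (SD, n = 3), with a difference of 0.02 ± 0.26 (SE, adjusted p = 0.975) and a 95% interval of -0.54 to 0.58. The range over the 7 libraries was 1.30, or 2.45-fold. The interval of Slc6a4 is narrowed in the same way as that of Tph2, and with a robust prior the SE was 0.42. Because both groups held high and low libraries, the direction of the difference in Tph2 and in Slc6a4 turned with the library that was left out, over -0.44 to 0.23 for Tph2 and -0.38 to 0.23 for Slc6a4, and no such fit passed the threshold.

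Fev lies at chr1:74881509-74885419 on the minus strand. Its values were the lowest of the 9 genes, 3.50, 3.44, 3.36 and 3.36 in on libraries 1 to 4, against 3.59, 3.37 and 3.49 in off libraries 1 to 3. Its 4 highest libraries were again on 1, on 2, off 1 and off 3, in a total range of 0.23. Fev averaged 3.42 ± 0.07 in on (SD, n = 4) and 3.48 ± 0.11 in off (SD, n = 3), and the difference was -0.07 ± 0.05 (SE, adjusted p = 0.438), with a 95% interval of -0.17 to 0.03. At this level the transformation shrinks deviations strongly, so the small range of Fev cannot be set against the ranges of Tph2 and Slc6a4.

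**Figure D1:**
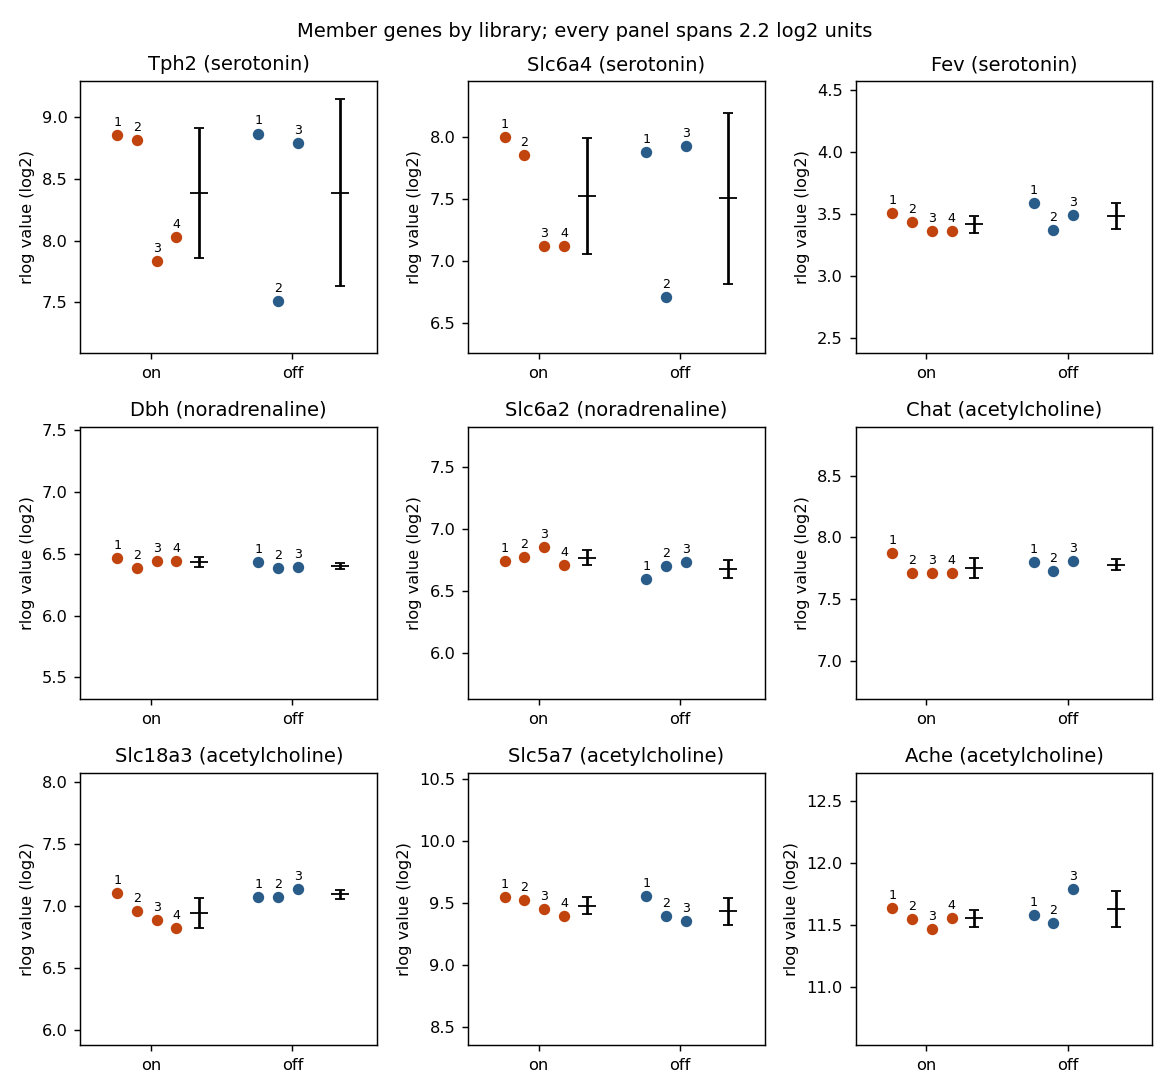
The rlog value (log2) of each of the 9 genes in every library, with on on the left and off on the right of each panel; points are libraries with their replicate numbers, bars are the mean and SD, and every panel spans the same number of log2 units. Tph2 and Slc6a4 are high in libraries 1 and 2 of on and 1 and 3 of off and low in the other 3. The other 7 genes have ranges of 0.32 or less, and the deviations of the low gene Fev are strongly shrunken.

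The spread within groups set Tph2 and Slc6a4 apart from nearly all other genes. The within-group SD of Tph2 was 0.630, rank 1 of the 17896 genes tested, and that of Slc6a4 was 0.570, rank 3. Among the 1755 genes with a mean within 0.5 of that of Tph2 the median SD was 0.0709, and among the 1415 genes near Slc6a4 it was 0.0767. Fev had an SD of 0.0859, rank 3369 of all genes and rank 18 of the 1309 genes near its low mean, where the median was 0.0382. With any single library left out, Tph2 held ranks from 1 to 3 and Slc6a4 ranks from 2 to 6, the highest rank number in each coming without off 2. After correction for transcript length and GC content the ranks were again 1 and 3. The ranks describe these 7 libraries and carry no test.

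**Figure D2:**
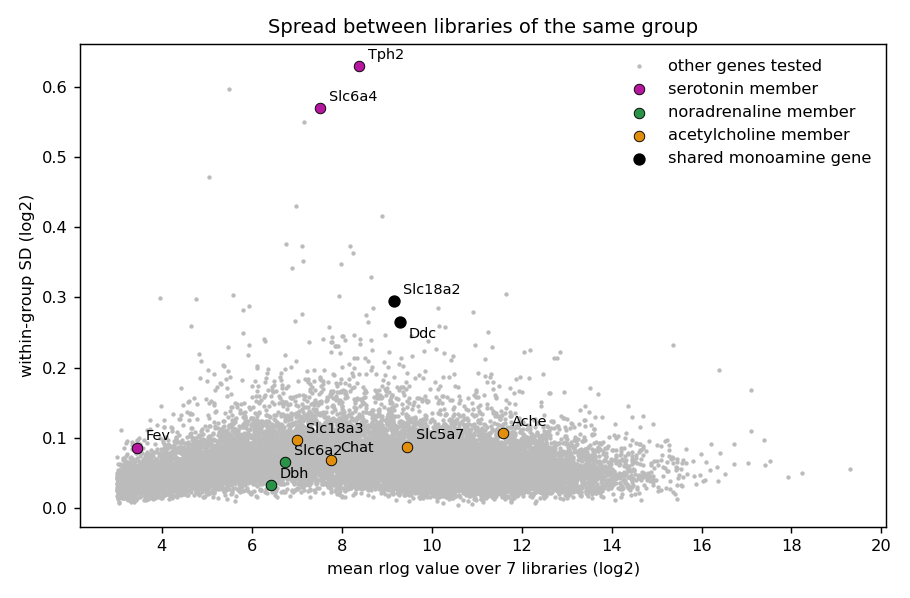
The within-group SD (log2) of each of the 17896 genes tested against its mean rlog value over the 7 libraries (log2), with the members coloured by transmitter and Slc18a2 and Ddc in black. Tph2 at 0.630 and Slc6a4 at 0.570 lie far above the bulk of the genes, Slc18a2 and Ddc lie between, and the noradrenaline and acetylcholine genes lie between 0.0323 and 0.106.

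Within a library the 2 serotonin genes kept a nearly constant distance. Tph2 minus Slc6a4 was 0.86, 0.95, 0.71 and 0.92 in on libraries 1 to 4 and 0.98, 0.81 and 0.86 in off libraries 1 to 3, a range of 0.27 where each gene alone had a range of 1.30 or more. The mean distance was 0.86 ± 0.11 in on (SD, n = 4) and 0.89 ± 0.09 in off (SD, n = 3), and the exact two-sided permutation test gave p = 0.743 for the difference between the groups. The 4 libraries against 3 allow 35 groupings and a smallest p of 0.0286.

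The genes that serotonin neurons share with other monoamine neurons followed the serotonin genes in part. Slc18a2, the vesicular pump, had rlog values of 9.37, 9.33, 8.80 and 8.99 in the on libraries, against 9.43, 8.84 and 9.37 in the off libraries. Its within-group SD was 0.295, rank 22 of all genes tested. Ddc, the decarboxylase that completes the synthesis of both serotonin and dopamine, had 9.52, 9.31, 8.96 and 9.22 in the on libraries, against 9.45, 8.998 and 9.59 in the off libraries, with an SD of 0.265, rank 31. In both genes the 4 highest libraries were those of Tph2, and on minus off was -0.09 ± 0.14 (SE, adjusted p = 0.770) for Slc18a2 and -0.10 ± 0.13 (SE, adjusted p = 0.714) for Ddc. The breakdown enzymes varied less. Maoa, which prefers serotonin and noradrenaline, ranked 12264 by its SD, at 0.01 ± 0.04 (SE, adjusted p = 0.900), and Maob, which is found in serotonin neurons and astrocytes, ranked 1199, at -0.03 ± 0.06 (SE, adjusted p = 0.844). Maob had 10.43, 10.20, 10.14 and 10.21 in the on libraries, against 10.35, 10.17 and 10.30 in the off libraries. It was highest in on 1, off 1 and off 3, which were also high in Tph2.

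By Pearson correlation over the 7 libraries, the 5 genes most like Tph2 were Lpar2 (r = 0.995), Slc6a4 (0.991), Pax7 (0.986), Slc18a2 (0.976) and Hnrnpf (0.973). Pax7, a transcription factor of the dorsal midbrain and of muscle progenitors, had rlog values of 5.96, 5.93, 5.75 and 5.74 in the on libraries, against 5.92, 5.67 and 5.93 in the off libraries. Lpar2, a receptor for lysophosphatidic acid, had 5.47, 5.45, 5.38 and 5.39 in the on libraries, against 5.46, 5.35 and 5.46 in the off libraries, a far smaller range than that of Tph2. With 7 points that fall into a high and a low cluster, a high r needs little more than the same 3 low libraries, so these values are a description with no test.

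Of the transcription factors and raphe markers of serotonin neurons, 12 of 13 were tested, 0 passed in either direction with limma, 1 reached an unadjusted p of 0.05, and the median difference was 0.00. Foxa2 was below the level needed for a test, with a mean of 2.76. Lmx1b, a factor that serotonin neurons need to form and to keep their identity, had 6.34, 6.29, 6.29 and 6.24 in the on libraries, against 6.17, 6.13 and 6.33 in the off libraries, at 0.08 ± 0.06 (SE, adjusted p = 0.473). Gata3, a factor of serotonin and other brainstem neurons, had 6.33, 6.36, 6.21 and 6.21 in the on libraries, against 6.28, 6.14 and 6.27 in the off libraries, at 0.05 ± 0.06 (SE, adjusted p = 0.669). Trh, the precursor of thyrotropin-releasing hormone, is also in the list of olfactory bulb markers given below. It had the smallest p of the raphe list, at -0.25 ± 0.11 (SE, adjusted p = 0.223). The mean deviation of the list was 0.04, 0.02, -0.07 and -0.04 in on libraries 1 to 4 and 0.05, -0.07 and 0.07 in off libraries 1 to 3. It was positive in the 4 libraries high in Tph2 and negative in the 3 low ones. The mean deviation of the 3 serotonin genes ran from -0.34 to 0.34 in on and from -0.58 to 0.33 in off. These sizes cannot be set against each other, since the raphe list holds lower genes such as Lmx1b and Gata3, whose deviations are shrunken.

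Other marker lists went with Tph2 to differing degrees, the hindbrain Hox genes least in sign. The mean deviation of 15 hindbrain Hox genes, which mark tissue from the medulla and spinal cord, was 0.03, 0.05, 0.05 and -0.09 in on and 0.01, 0.02 and -0.07 in off, and all 15 were tested with 0 called in either direction. This list holds low genes, such as Hoxd4 with a mean of 3.08 in on, whose deviations are shrunken. Among dopamine neuron markers, 11 of 12 were tested, 0 were higher and 1 was lower in on. Their mean deviation was 0.04, 0.00, -0.09 and -0.04 in on and 0.07, -0.08 and 0.09 in off, in a list that holds Slc18a2 and Ddc too. Noradrenaline neuron factors and locus coeruleus markers had 0.05, -0.005, -0.09 and -0.06 in on and 0.10, -0.05 and 0.06 in off. Acetylcholine neuron factors and markers had 0.09, -0.08, -0.09 and -0.04 in on and 0.08, -0.06 and 0.10 in off. Both lists differed in sign from Tph2 only in on 2, so the pattern of the raphe list is not particular to that list. The dopamine transporter Slc6a3, which serotonin neurons do not use, had 8.88, 8.81, 8.81 and 8.80 in the on libraries, against 8.91, 8.62 and 9.12 in the off libraries, an SD rank of 270. The part of tissue makeup in the spread of the serotonin genes was not tested, and in bulk samples fewer cells of a type and less RNA per cell cannot be told apart.

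**Figure D3:**
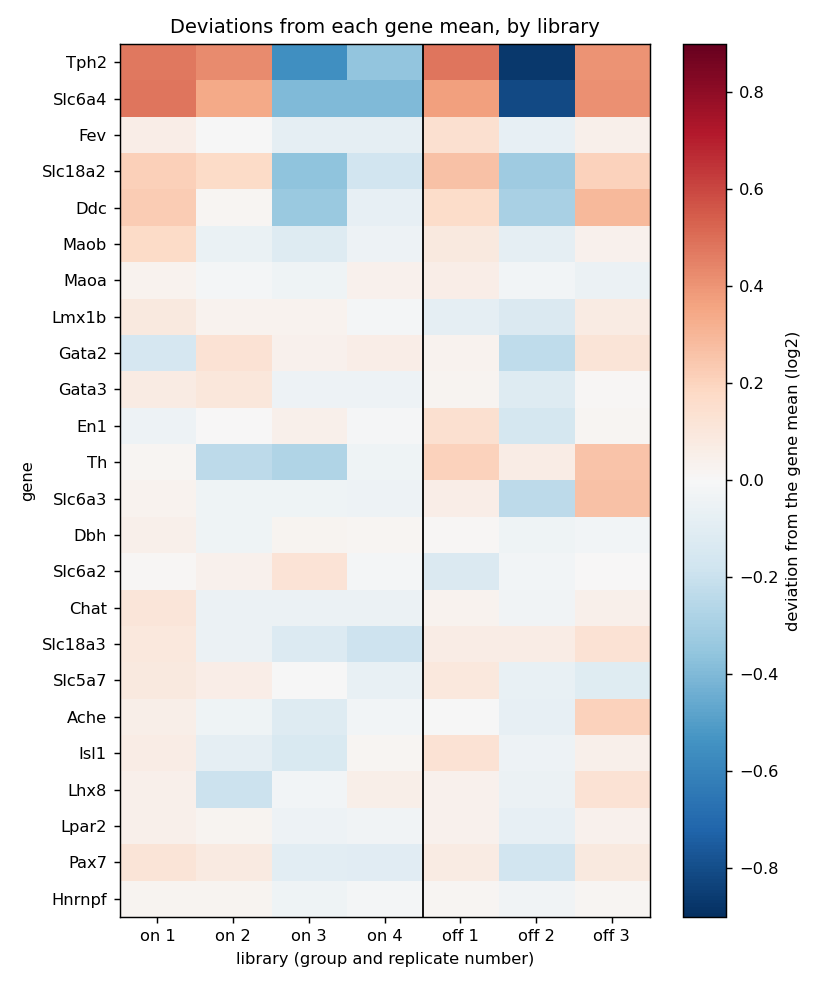
Deviation of each gene from its own mean over the 7 libraries (log2, colour) by library, on libraries 1 to 4 left of the line and off libraries 1 to 3 right of it. Red in libraries 1 and 2 of on and 1 and 3 of off and blue in the other 3 marks Tph2 and Slc6a4, more faintly Slc18a2, Ddc and Pax7, while Dbh stays near 0.

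The noradrenaline genes varied little, and neither passed the test between on and off. Dbh encodes the enzyme that turns dopamine into noradrenaline, and lies at chr2:27165233-27183200 on the plus strand. Its values were 6.47, 6.38, 6.44 and 6.44 in on libraries 1 to 4, against 6.43, 6.38 and 6.40 in off libraries 1 to 3, a range of 0.09 over all 7 libraries. Dbh averaged 6.43 ± 0.04 in on (SD, n = 4) and 6.40 ± 0.02 in off (SD, n = 3), at 0.03 ± 0.05 (SE, adjusted p = 0.768), with a 95% interval of -0.07 to 0.13. Its within-group SD ranked 16129 of 17896, among the smallest of all genes tested. Low variation in Dbh stood beside the high variation of Tph2 in the same libraries.

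Slc6a2 encodes the transporter that takes noradrenaline back up, and lies at chr8:92960079-93001667 on the plus strand. Its values were 6.74, 6.77, 6.85 and 6.71 in on libraries 1 to 4, against 6.60, 6.70 and 6.73 in off libraries 1 to 3. On 3 was the highest library and off 1 the lowest, and the groups overlapped. The averages were 6.77 ± 0.06 in on (SD, n = 4) and 6.68 ± 0.07 in off (SD, n = 3), with a difference of 0.09 ± 0.06 (SE, adjusted p = 0.371) and a 95% interval of -0.03 to 0.21. Dbh and Slc6a2 ordered the libraries alike in 12 of 21 pairs of libraries, and Tph2 and Slc6a4 in 17 of 21. Slc6a4 reached the same 17 with the acetylcholine genes Chat, Slc18a3 and Ache, so this count is not particular to the serotonin genes. Dbh minus Slc6a2 within a library was -0.34 ± 0.07 in on (SD, n = 4) and -0.27 ± 0.09 in off (SD, n = 3), with an exact two-sided permutation p of 0.343.

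Of the transcription factors and locus coeruleus markers of noradrenaline neurons, 10 of 11 were tested and 0 passed in either direction with limma, with 2 at an unadjusted p of 0.05 and a median difference of -0.06. Phox2a, which these neurons need to form, had a mean of 2.23, too low for a test. The smallest p was that of Tfap2b, an AP-2 factor that is also found in the cerebellum, at 0.18 ± 0.07 (SE, adjusted p = 0.153). Among 6 genes listed as markers of autonomic neurons and smooth muscle 0 were called, and the smallest p was that of Npy, at -0.19 ± 0.06 (SE, adjusted p = 0.0987). Which cells of the brain gave the Npy values was not tested.

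The 4 acetylcholine genes had within-group SDs of 0.0688 to 0.106, far below those of Tph2 and Slc6a4, and Slc18a3 had the smallest p of the 9 members. Chat encodes choline acetyltransferase, which makes acetylcholine, and lies at chr14:32408203-32465989 on the minus strand. Its values were 7.88, 7.71, 7.71 and 7.71 in on libraries 1 to 4, against 7.80, 7.73 and 7.81 in off libraries 1 to 3. On 1 stood apart from the other on libraries, which lay within 0.01 of each other, and the off libraries lay between. Chat averaged 7.75 ± 0.08 in on (SD, n = 4) and 7.78 ± 0.04 in off (SD, n = 3), at -0.03 ± 0.06 (SE, adjusted p = 0.841), with a 95% interval of -0.15 to 0.10.

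Slc18a3 encodes the pump that loads acetylcholine into vesicles. It is a single exon at chr14:32462438-32464850 on the minus strand, inside the Chat gene and on the same strand, with 0 exonic bases shared between them and starts 1139 bases apart. Its values were 7.10, 6.96, 6.88 and 6.82 in on libraries 1 to 4, against 7.07, 7.07 and 7.14 in off libraries 1 to 3. On libraries 2, 3 and 4 were below all off libraries, and on 1 lay among them. The averages were 6.94 ± 0.12 in on (SD, n = 4) and 7.09 ± 0.04 in off (SD, n = 3). The difference was -0.15 ± 0.07 (SE) with a 95% interval of -0.29 to -0.01, an unadjusted p of 0.0347 by limma and an adjusted p of 0.205. Without on 1 it was -0.21 with an adjusted p of 0.0212, and after the correction for GC content and length it was -0.11 with an adjusted p of 0.373. Leaving out on 1 also raised the genes called over the whole table from 466 to 2917 of 17896. On 1 also stood apart from the other on libraries over the whole table, with a score of -1.97 for principal component 1, where the others had 3.43 to 4.04 and the off libraries -3.82 to -2.08.

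Slc5a7 encodes the transporter that takes up choline for synthesis, and lies at chr17:54273590-54299034 on the minus strand. Its values were 9.54, 9.52, 9.45 and 9.39 in on libraries 1 to 4, against 9.55, 9.39 and 9.35 in off libraries 1 to 3. Both groups spanned nearly the same range. It averaged 9.48 ± 0.07 in on (SD, n = 4) and 9.43 ± 0.11 in off (SD, n = 3), at 0.04 ± 0.06 (SE, adjusted p = 0.705), with a 95% interval of -0.08 to 0.17.

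Ache encodes acetylcholinesterase, which breaks down acetylcholine at synapses and is also made by neurons that do not release acetylcholine, and lies at chr5:137287519-137294466 on the plus strand. Its values were 11.64, 11.55, 11.47 and 11.56 in on libraries 1 to 4, against 11.58, 11.51 and 11.79 in off libraries 1 to 3. Off 3 was the highest library, and the others of both groups lay between 11.47 and 11.64. The within-group SD of 0.106 ranked 112 of the 2257 genes near its mean, where the median was 0.0532. Ache averaged 11.55 ± 0.07 in on (SD, n = 4) and 11.63 ± 0.14 in off (SD, n = 3), at -0.08 ± 0.06 (SE, adjusted p = 0.493), with a 95% interval of -0.20 to 0.05, and without off 3 the difference was 0.0050. It shares 98 exonic bases with Gm42456, a gene of the opposite strand. No source used here says whether counting used strand, so reads in those bases may belong to either gene.

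**Figure D4:**
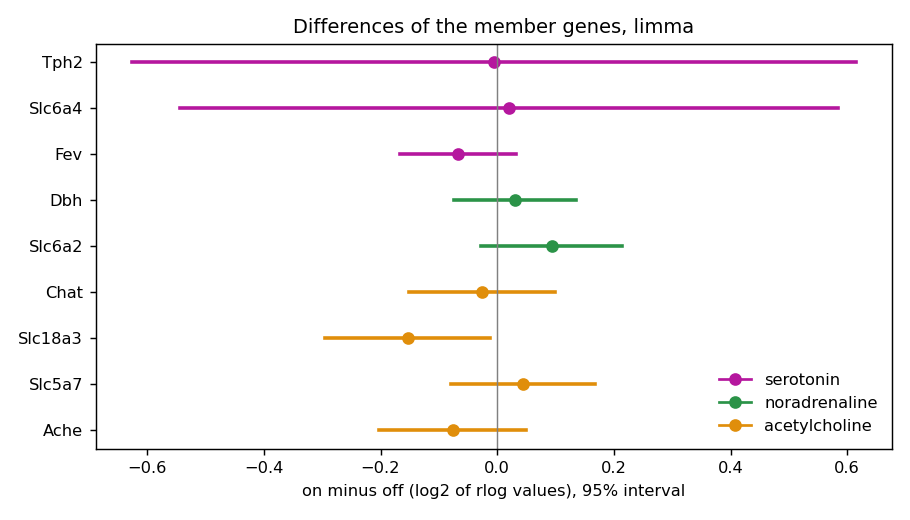
On minus off (log2 of rlog values) for each member from limma; points are the differences, lines their 95% intervals, colours the transmitter. The intervals of Tph2 and Slc6a4 are the widest, and that of Slc18a3, -0.29 to -0.01 before adjustment, is the only one that leaves out 0.

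Chat and Slc18a3 ordered the libraries alike in 19 of 21 pairs, Chat and Ache in 15 and Chat and Slc5a7 in 12. With the serotonin genes Slc6a4 and Fev, Chat did so in 17 pairs each, more than with Ache or Slc5a7. The 5 genes most like Chat over the 7 libraries were Scd1 (r = 0.980), Srl (0.973), Gm13093 (0.971), 2410004P03Rik (0.969) and Mocs1 (0.966). The 5 most like Ache were Paqr6 (r = 0.983), Slc2a4 (0.975), Lyl1 (0.966), 6430503K07Rik (0.962) and A930006K02Rik (0.962). None of these lists holds another acetylcholine gene.

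Of the transcription factors and markers of acetylcholine neurons, 12 of 13 were tested and 0 passed with limma, with 1 at an unadjusted p of 0.05. The median difference was -0.07, with 11 of 12 genes negative, beside 0.00 over all genes. Isl1, a factor of striatal and motor neurons, had 7.06, 6.92, 6.86 and 7.01 in the on libraries, against 7.12, 6.95 and 7.04 in the off libraries, at -0.08 ± 0.06 (SE, adjusted p = 0.520). Lhx8, which basal forebrain and striatal acetylcholine neurons need, was at -0.07 ± 0.06 (SE, adjusted p = 0.589). The smallest p was that of Lhx6, a factor of forebrain interneurons, at -0.13 ± 0.06 (SE, adjusted p = 0.212). Of 12 medial habenula markers, 0 were called and the median difference was -0.05, with the smallest p in Lrrc55 at -0.11 ± 0.05 (SE, adjusted p = 0.208).

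Levels between genes were compared per length, as the mean rlog value minus the log2 length of the longest transcript in kilobases. In on, Ache was highest at 9.67, followed by Slc5a7 at 7.10, Tph2 at 6.99, Chat at 6.24, Slc6a4 at 6.04, Slc18a3 at 5.67, Dbh at 5.08, Slc6a2 at 4.14 and Fev at 2.84. In off, Ache was at 9.75, Slc5a7 at 7.06, Tph2 at 6.995, Chat at 6.27, Slc6a4 at 6.02, Slc18a3 at 5.82, Dbh at 5.05, Slc6a2 at 4.05 and Fev at 2.91. The order was the same in both groups. In on, Slc5a7 and Tph2, Chat and Slc6a4, and Slc6a4 and Slc18a3 differed by less than the SD of Tph2 or Slc6a4, and in off Tph2 and Chat did so too.

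None of the receptors of serotonin passed the test. Of 14 receptor genes 12 were tested and 0 passed with limma, with 2 at an unadjusted p of 0.05 and a median of -0.04. Htr1a, the receptor by which serotonin neurons restrain their own firing and which cortical neurons carry too, had 9.27, 9.14, 9.13 and 9.05 in the on libraries, against 9.33, 9.22 and 9.26 in the off libraries, at -0.12 ± 0.06 (SE, adjusted p = 0.227). Htr2a, an excitatory receptor of cortex, was at -0.02 ± 0.05 (SE, adjusted p = 0.890), and Htr2c, abundant in the choroid plexus, at -0.02 ± 0.05 (SE, adjusted p = 0.883). None of these receptors varied like Tph2: Htr1a ranked 4828, Htr2a 9002 and Htr2c 4351 by within-group SD.

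The receptors of noradrenaline held 2 of the differences that passed. All 9 genes were tested, 2 were lower and 0 higher in on, beside 1.79% lower and 0.816% higher over all genes, and the median was -0.10. In 5 of 9 the groups did not overlap, beside 15.2% of all genes tested. Adrb1, the β1 receptor of cortex and heart, had 8.94, 9.01, 8.98 and 8.93 in the on libraries, against 9.15, 9.28 and 9.22 in the off libraries, a difference of -0.25 ± 0.05 (SE, adjusted p = 0.0203). Adra2c, an α2 receptor abundant in striatum, had 8.68, 8.71, 8.69 and 8.54 in the on libraries, against 9.003, 8.93 and 8.82 in the off libraries, a difference of -0.26 ± 0.06 (SE, adjusted p = 0.0345). Both calls depended on single libraries and on the correction. Adrb1 missed the threshold without on 3 (adjusted p = 0.0792), on 4 (0.0759), off 2 (0.144) or off 3 (0.0879), and after the GC and length correction (-0.20, adjusted p = 0.0756). Adra2c passed without on 1 and missed without any other single library (adjusted p from 0.0550 to 0.163), and after the correction it was -0.13 (adjusted p = 0.349).

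Adra2a, the α2 receptor by which noradrenaline neurons restrain themselves, had 9.36, 9.36, 9.27 and 9.30 in the on libraries, against 9.41, 9.39 and 9.47 in the off libraries. Its groups did not overlap, and the difference of -0.10 ± 0.05 (SE) did not pass (adjusted p = 0.225). Adra1a had 8.99, 8.95, 8.94 and 8.999 in the on libraries, against 8.83, 8.83 and 8.87 in the off libraries, the 1 gene of the family whose on libraries were all above the off libraries, at 0.13 ± 0.05 (SE, adjusted p = 0.148). Adra1d was at -0.20 ± 0.06 (SE, adjusted p = 0.0818), with on below off in every library.

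Of the acetylcholine receptors 0 passed with limma, in 5 of 5 muscarinic genes and 12 of 16 nicotinic subunit genes tested, with 0 of either list at an unadjusted p of 0.05. The medians were 0.00 in both lists. Chrm1, the muscarinic receptor of cortical and hippocampal neurons, was at -0.08 ± 0.05 (SE, adjusted p = 0.381), and Chrm4, a striatal one, at 0.06 ± 0.07 (SE, adjusted p = 0.658). Chrna4 and Chrnb2, which form the most common nicotinic receptor of the brain, were at 0.02 ± 0.04 (SE, adjusted p = 0.825) and 0.01 ± 0.04 (SE, adjusted p = 0.881). Chrna7, which forms receptors of its own, was at 0.01 ± 0.05 (SE, adjusted p = 0.909), and the smallest p of the subunits was that of Chrna5 at -0.06 ± 0.05 (SE, adjusted p = 0.504).

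Among anchors of cholinesterases and chaperones of nicotinic receptors, 10 of 10 were tested and 1 was lower. Ly6h, a prototoxin that lowers nicotinic receptor function, had 11.60, 11.37, 11.33 and 11.51 in the on libraries, against 11.72, 11.82 and 11.83 in the off libraries, a difference of -0.34 ± 0.06 (SE, adjusted p = 0.0123). It passed after the correction at -0.29 (adjusted p = 0.0325) and missed without on 3 (adjusted p = 0.0507), off 2 (0.0911) or off 3 (0.0856). Bche, the second cholinesterase, had 8.61, 8.66, 8.77 and 8.70 in the on libraries, against 8.55, 8.55 and 8.49 in the off libraries, with all on libraries above all off libraries at 0.16 ± 0.05 (SE, adjusted p = 0.117). Prima1, the anchor that holds acetylcholinesterase at the membranes of neurons, was at -0.03 ± 0.08 (SE, adjusted p = 0.857). The list median was -0.04.

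Among enzymes and pumps shared by monoamine neurons, 15 of 16 were tested, 0 were higher and 1 was lower, with a median of -0.05. Th, the rate-limiting enzyme of dopamine and noradrenaline synthesis, had 9.64, 9.39, 9.35 and 9.58 in the on libraries, against 9.83, 9.69 and 9.88 in the off libraries, a difference of -0.31 ± 0.07 (SE, adjusted p = 0.0382). Without on 1 the adjusted p was 0.00158, and without any other single library it was from 0.0683 to 0.154. After the GC and length correction it was -0.26 (adjusted p = 0.0993). Th also missed with no intensity trend (0.0643), with the replicate block (0.105) and without a filter (0.243). Olfactory bulb neurons express Th too. The list of olfactory bulb markers also holds Omp and S100a5, which are genes of olfactory sensory neurons rather than of bulb neurons. Of the 11 genes of this list that were tested, 3 were lower in on, beside 1.79% of all genes: Omp at -0.66 ± 0.11 (SE, adjusted p = 0.00839), Doc2g at -0.47 ± 0.07 (SE, adjusted p = 0.00801) and S100a5 at -0.47 ± 0.09 (SE, adjusted p = 0.0182), with a list median of -0.21. The call of Omp was lost without off 3 (adjusted p = 0.0571), that of Doc2g without off 2 (0.0691), and that of S100a5 without on 3 (0.0680), off 1 (0.0610) or off 3 (0.0955). After the GC and length correction Omp, Doc2g and S100a5 passed (adjusted p = 0.0230, 0.0260 and 0.0451). They also passed with the replicate block (0.0132, 0.0363 and 0.0309) and missed without a filter (0.170, 0.147 and 0.192). Their part in the difference of Th was not tested.

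**Figure D5:**
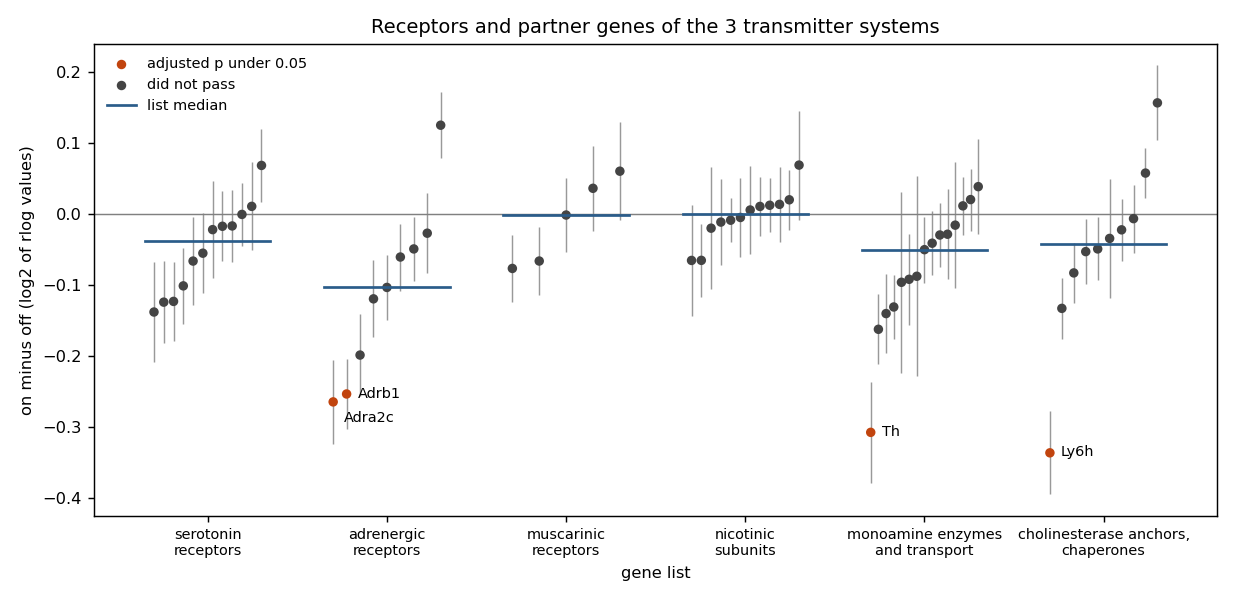
On minus off (log2 of rlog values) for each tested gene of 6 lists, ordered by size within the list; lines are the SE, blue bars the list medians, and red points passed an adjusted p of 0.05. Adrb1, Adra2c, Th and Ly6h, between -0.34 and -0.25, are the only genes of these lists that passed, all lower in on.

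Markers of other tissue parts and cell types are given for the makeup of the libraries. The markers of cortex and hippocampus (12 of 12), striatum (14 of 14), cerebellum (12 of 12) and olfactory bulb (11 of 12) were nearly all at levels that could be tested, so genes of all these parts were present. Striatal projection neurons had 1 gene lower, Syndig1l at -0.20 ± 0.04 (SE, adjusted p = 0.0352), with all 14 genes negative and a median of -0.15. Cortex and hippocampus had 0 called, with a median of -0.02 and the smallest p in Tbr1 at 0.16 ± 0.05 (SE, adjusted p = 0.0697). Cerebellum had 0 called, with a median of 0.07 and the smallest p in Fat2 at 0.36 ± 0.09 (SE, adjusted p = 0.0515). Oligodendrocytes had 2 lower, Olig1 at -0.28 ± 0.05 (SE, adjusted p = 0.0165) and Olig2 at -0.24 ± 0.06 (SE, adjusted p = 0.0493), with a median of -0.08. Of these 3 calls, Olig1 was lost without on 3, on 4, off 2 or off 3 (adjusted p from 0.0634 to 0.0960). Olig2 passed without on 1 or on 2 and Syndig1l without on 1, and both missed without any other single library. After the GC and length correction none of the 3 passed, at -0.15 for Olig1 (adjusted p = 0.0827), -0.18 for Olig2 (0.160) and -0.12 for Syndig1l (0.132). Olig2 also missed with median centring (0.0565), quantile normalization (0.0602) and no intensity trend (0.0746). Astrocytes, microglia, endothelium with mural cells, and blood with choroid plexus had 0 called, with medians of -0.02, -0.11, 0.10 and -0.04. The smallest adjusted p of these 4 lists were 0.0890 for Sox9, 0.0914 for Trem2, 0.227 for Cldn5 and 0.396 for Hba-a2. Over all genes, deviations also followed transcript length, with a rank correlation across genes of -0.06 in on 1, between 0.27 and 0.29 in on 2, 3 and 4, and between -0.32 and -0.23 in off. The correction for GC content and length left 105 genes called of 17896 (0.587%), 0 of them members.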

How the data were processed

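Brain RNA was sequenced in 4 on and 3 off libraries. Per the labels, extraction used Qiagen miRNeasy columns with DNase, and libraries were made with Illumina TruSeq Stranded mRNA, which keeps strand. The authors used DESeq2 1.16.1, Subread 1.5.3, STAR 2.5.2, cutadapt 1.9.1, BWA 0.7.14-r1136 and GRCm38, per the submitters' processing notes, which give no role for each. The deposited values are rlog values (log2 scale), which shrink low genes, and no counts were used, so no counting interval is given. Genes with a mean of 3 or more were fitted with limma 3.58.1 (R 4.3.3), with a group term and an intensity trend. Tests were two-sided, with Benjamini-Hochberg adjustment over all 17896 genes and a threshold of 0.05. Pairs of genes were tested by exact permutation. Members, lists and alternatives were chosen with earlier results of these data known. The genes named were all 9 members, the called genes or the smallest p of each list, direct partners by role, and the 5 genes most like Tph2, Chat and Ache. Some genes named by this rule are not reported here. Locations are from GENCODE M21. Alternatives were no filter, a mean of 5, median centring, quantile normalization, no trend, a robust prior, array weights, a replicate block, a threshold of 0.1, each library left out, and a GC and length correction (mgcv 1.9.3). The methods were tested on simulated data. No 2 libraries held identical values (0 pairs).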

Additional observations from a re-analysis of the deposited data

Results flagged for a closer look

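In 8 of 80 groups of on libraries examined, 1 library lay farther from the others than the limit for 4 values allows, and chance gives about 1 in 20. Chat was 7.88 in on 1, against 7.71 in each of the other on libraries. Adra2c was 8.54 in on 4, against 8.68 to 8.71 in the others. Chrm1 was 11.66 in on 2, against 11.74 to 11.75. The olfactory marker gene Omp was 6.94 in on 4, against 6.60 to 6.64, and the microglial gene Trem2 was 8.87 in on 1, against 8.62 to 8.64. The mean deviation of the hindbrain Hox genes was -0.092 in on 4, against 0.0289 to 0.0489 in the others. The score of on 1 for principal component 1 was -1.97, where on 2, 3 and 4 had 3.43 to 4.04. The rank correlation of its deviations with transcript length was -0.0592, where on 2, 3 and 4 had 0.274 to 0.291.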

How the results depend on the processing

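The number of genes called over the whole table, 466, stayed within 1.5 times with median centring (424), quantile normalization (424), a robust prior (539), a minimum mean of 5 (458) and without off 1 (311). It moved further under the other choices: 7 without a filter, 2215 with array weights, 105 after the GC and length correction, 237 without the trend, 1182 at a threshold of 0.1, and with 1 library left out from 43 (without off 2) to 2917 (without on 1). Members called were 0 in most settings, 1 with array weights and 0 to 1 with 1 library left out, the gene being Slc18a3 both times (-0.19 with array weights, adjusted p = 0.0490, and -0.21 to -0.11 with 1 library left out). Both calls, with array weights and without on 1, came in the settings with the most genes called over the whole table. Same-numbered on and off libraries had deviations that correlated at -0.23, -0.10 and 0.02, and differently numbered ones at -0.19 to 0.30. So few values cannot decide whether the replicate numbers pair the samples, which the labels do not say. With the replicate block 30 genes and 0 members were called, and the difference of Tph2 was 0.11. Signs turned, with no call on either side, for Chat at 0.0016, Slc5a7 at -0.030, Chrnb2 at -0.017, Maoa at -0.014 and Prima1 at 0.0090 after the correction, for Slc6a4 at -0.096 with array weights and for Tph2 at 0.0010 with median centring. With 1 library left out, the values were -0.44 to 0.23 for Tph2, -0.38 to 0.23 for Slc6a4, -0.13 to 0.0050 for Ache, 0.0029 to 0.11 for Slc5a7, -0.067 to -0.011 for Chat, -0.12 to -0.016 for Fev, 0.054 to 0.12 for Slc6a2, 0.019 to 0.048 for Dbh, -0.27 to 0.021 for Slc18a2, -0.27 to 0.025 for Ddc, -0.012 to 0.046 for Maoa, -0.089 to 0.0094 for Maob, -0.098 to 0.065 for Prima1, -0.049 to 0.014 for Htr2a, -0.055 to 0.025 for Htr2c, -0.0045 to 0.13 for Chrm4, -0.013 to 0.041 for Chrna7, -0.0042 to 0.029 for Chrnb2 and -0.064 to 0.023 for Tph2 minus Slc6a4. The cause of these moves was not tested. Dbh, Slc6a2, Slc18a3 and Fev had the same sign in every setting run, and Fev could not be tested at a minimum mean of 5. Of the counts of called genes by list, 333 stayed within 1.5 times and 92 moved. The values of the other genes named and the counts of genes higher and of genes lower were tallied together, and 646 of them held. Among the gene values 66 lost their call, 24 gained one and 19 changed sign, and those counts moved 25 times. Without counts, depth sets no limit that can be stated, and 4 libraries against 3 limit the precision.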

Other observations

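Chat and Slc18a3 lie in 1 locus, and the distance between their values within a library was compared between the groups, a comparison chosen after its values were seen. Chat minus Slc18a3 was 0.78, 0.76, 0.83 and 0.89 in on libraries 1 to 4, against 0.73, 0.66 and 0.67 in off libraries 1 to 3. The groups did not overlap, and the test did not pass on the deposited values. The mean was 0.81 ± 0.06 in on (SD, n = 4) and 0.69 ± 0.03 in off (SD, n = 3), a difference of 0.13 with an exact two-sided permutation p of 0.0571, or 0.171 after adjustment over the 3 pairs of genes compared. After the GC and length correction the difference was 0.12 with an exact permutation p of 0.0286, the smallest that 4 libraries against 3 can give, or 0.0857 after adjustment over the 3 pairs, which does not pass. With 1 library left out it was 0.10 to 0.15. No source used here says how reads were assigned between the genes.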
